A study of Mus musculus with 4 samples.

Results

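Mitochondrial respiratory complexes II to V were followed through every gene whose symbol in the platform annotation names a subunit of succinate dehydrogenase (Sdha to Sdhd), the cytochrome bc1 complex (Uqcr genes and Cyc1), cytochrome c oxidase (Cox4 to Cox8 genes) or the ATP synthase (Atp5 genes). The search found 46 of the 12393 named genes of the array, of which 4 belong to complex II, 9 to complex III, 16 to complex IV and 17 to complex V. The subunits encoded by mitochondrial DNA carry other symbols and are not among them. The study's series text asks how loss of Npm1, the gene of the nucleolar protein nucleophosmin, skews which RNAs are translated. Mouse embryonic fibroblasts labelled Npm1+/+ (wild type) or Npm1+/- (heterozygote), both of the strain written C57/BJ6, each gave 1 array of total RNA and 1 of ribosome-bound RNA, here called polysome RNA, from sucrose gradients. The labels name no treatment or embryo number and do not say how the allele was inactivated or whether the total and polysome RNA came from 1 culture.

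Complex II takes electrons from succinate, and complex III passes electrons from ubiquinol to cytochrome c. Complex IV hands them to oxygen, and complexes III and IV pump protons across the inner mitochondrial membrane as they do so. The ATP synthase, complex V, lets these protons flow back through a rotating ring of c subunits, which turns a central stalk inside the catalytic head and drives ATP formation. Most of the subunits are made on cytosolic ribosomes and imported, and each complex needs its subunits in fixed proportions.

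The 4 arrays had medians between 7.47 and 7.59 on the log2 scale. There was 1 array in each group, so no value below has a replicate error and no difference a test. The disagreement between probe sets of 1 gene served as a yardstick, with an SD over 2700 genes of 0.32 for differences between genotype labels in total RNA and 0.28 in polysome RNA. For Npm1 the genotype labels were not borne out. The brighter of its probe sets gave 11.91 (wild type) and 11.96 (heterozygote) for total RNA, and 12.93 and 12.84 for polysome RNA. Directions are therefore between libraries by their label. All 12 fibroblast markers were at or above the floor (7.53, the median of all values) in every array. Between genotype labels in total RNA, 9 of these 12 were below 0 (median -0.16, lowest Pdgfrb at -0.57). Of 14 macrophage markers, 9 reached the floor in at least 1 array, and all 9 were above 0 (median 0.25, highest C1qc at 0.71). Only 3 were at or above the floor in each total array, beside 7 (wild type) and 9 (heterozygote) in polysome RNA. In polysome RNA the counts were 9 of 12 below 0 (median -0.16) and 7 of 9 above 0 (median 0.27). The heterozygote polysome array let in the most markers, which favours values above 0 there. Over all 14 the medians were 0.18 and 0.185. Of all genes, 66.1% and 62.9% were above 0. The part of these markers in the genotype differences of the members was not tested. In a bulk sample, fewer cells of a type and less RNA per cell cannot be told apart.

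The floor was reached by 42 members in at least 1 array, among 7179 genes that did so. This took in all members of complexes II, III and V and 12 of complex IV, and 41 of the 42 were at or above the floor in all 4 arrays. The exception was Cox6a2, which passed through its wild-type polysome value alone. Cox4i2, Cox7a1, Cox7c and Cox8b stayed below the floor in every array. Of 83 probe sets of the members, 69 reached the floor, and 21 members had at least 2 that did.

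Each complex held 1 or 2 subunits at least 1.5-fold lower in the heterozygote library, complex IV in polysome RNA only. The other subunits lay within 1.5-fold, Sdhb in total RNA excepted. All genes spread about as widely, with an SD of 0.41 in total and 0.35 in polysome RNA, beside 0.39 and 0.40 for the members. Such a scatter was thus not particular to these complexes. In total RNA, 4 of the 42 members were lower by 1.5-fold or more (Sdha, Atp5e, Uqcrh and Uqcr10), against 6.23% of all genes, and 1 was higher (Sdhb), against 7.42%. In polysome RNA, 6 were lower (the same 4, with Cox7a2l and Atp5md), against 5.86%, and 0 were higher, against 2.08%. The remaining 36 members lay between -0.30 and 0.59 in total RNA and between -0.47 and 0.35 in polysome RNA. At 2-fold, Sdha alone was lower in total RNA (1.49% of all genes), and Sdha and Atp5e were lower in polysome RNA (1.17%).

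The median over the 42 members was close to that of all genes. In total RNA it was 0.17 with 30 members above 0, beside 0.19 and 66.1% above 0 for all genes. In polysome RNA the members' median was 0.04 with 27 above 0, beside 0.11 and 62.9%. The size of these small medians depends on the scaling, and in polysome RNA so does the sign of the members' median. The median of all genes in total RNA moved from 0.19 to 0.08 after quantile normalisation and to 0.03 after subtraction of a loess trend, and the members' median to 0.05 and 0.01. In polysome RNA the members' median became 0.02 and -0.04. Against the median gene of the same comparison, 20 members were higher and 22 lower in both kinds of RNA. The members' SD was 0.39 for total and 0.40 for polysome RNA, beside 0.41 and 0.35 over all genes.

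**Figure D1:**
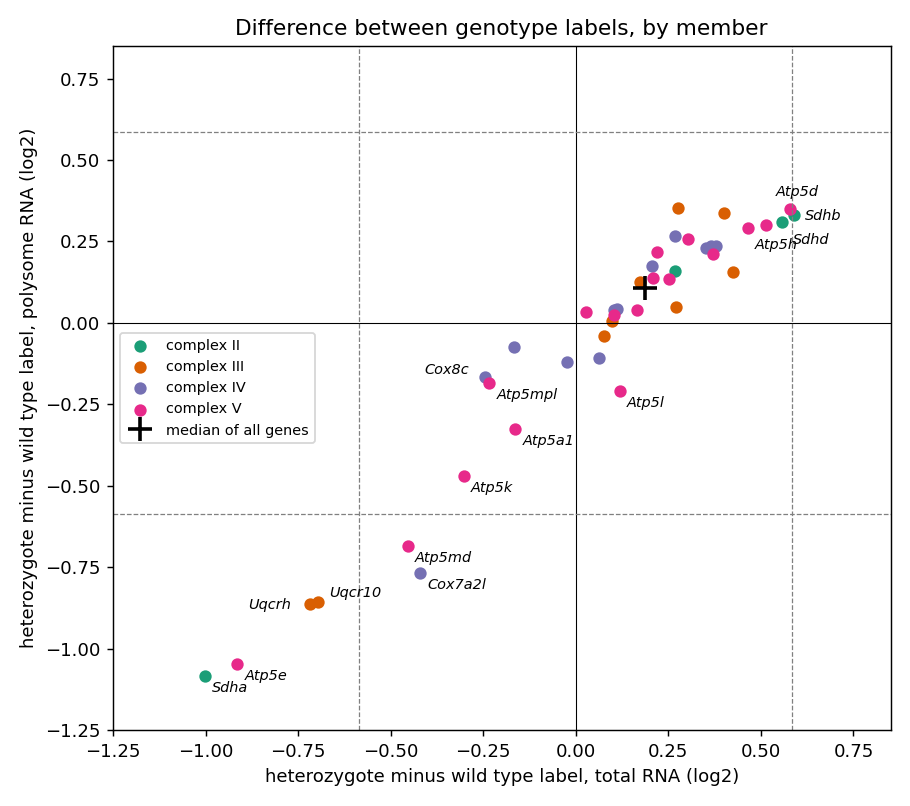
Difference between the genotype labels (heterozygote minus wild type, log2) in total RNA on the x axis and polysome RNA on the y axis, 1 point per member reaching the floor and coloured by complex. Dashed lines mark 1.5-fold and the cross the median of all genes. Sdha, Atp5e, Uqcrh, Uqcr10, Cox7a2l and Atp5md lie below the lower dashed line in polysome RNA, and the other 36 members form a band around the cross.

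The genotype differences in total and in polysome RNA share no array and were set side by side for each member. Pearson's r over the 42 members was 0.97 and Spearman's rho 0.94, with 39 of 42 of the same sign, and r over all 7179 genes was 0.91. The points are genes that share the same 4 libraries, so the coefficient describes these arrays. The exceptions in sign were Atp5l, Cox6c and Uqcrc1, of which Atp5l was widest apart, at 0.12 and -0.21.

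To show what precedes the start sites of subunits that went opposite ways, the 150 bases upstream of 2 complex II genes and of the lower members Uqcrh and Atp5e are printed from RefSeq (GRCm38.p6), 5′ to 3′ along the gene. They are chr13:74350241-74350390 (minus strand, Sdha), chr4:140961121-140961270 (plus strand, Sdhb), chr4:116075071-116075220 (minus strand, Uqcrh) and chr2:174464102-174464251 (minus strand, Atp5e). Capitals mark a match to a searched motif. The same stretches of Uqcr10, a lower member, and of Uqcrfs1, which read above 0, are not printed and held no match.
Sdha: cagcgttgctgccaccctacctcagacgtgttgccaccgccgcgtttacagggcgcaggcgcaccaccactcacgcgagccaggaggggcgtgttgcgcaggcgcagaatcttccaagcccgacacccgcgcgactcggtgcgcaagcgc
Sdhb: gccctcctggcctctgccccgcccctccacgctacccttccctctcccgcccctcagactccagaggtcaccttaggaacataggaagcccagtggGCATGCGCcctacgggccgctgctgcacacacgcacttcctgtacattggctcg
Uqcrh: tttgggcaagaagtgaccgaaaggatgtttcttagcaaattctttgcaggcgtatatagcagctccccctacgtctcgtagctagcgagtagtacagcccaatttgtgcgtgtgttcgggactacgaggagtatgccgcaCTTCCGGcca
Atp5e: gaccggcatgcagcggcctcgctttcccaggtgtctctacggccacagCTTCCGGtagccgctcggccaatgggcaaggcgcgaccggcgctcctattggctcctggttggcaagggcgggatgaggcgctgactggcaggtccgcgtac

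The letters of 3 motifs that are textbook elements of nuclear genes for respiration were searched on both strands in windows of 300 bases, 250 before to 50 after the start. They were the letters GCGCATGC for nuclear respiratory factor 1 (NRF1), CCGGAAG for ETS factors such as GABP, and ATGGCGG for YY1. RefSeq windows matched 34 of the 46 members. The NRF1 letters were in 7 of them (20.6%), against 3.05% of 27025 genes with a window, non-coding genes included. The ETS letters were in 13 (38.2%), against 9.93%. The YY1 letters were in 2 (5.88%), against 4.69%. Among the 6 lower members the NRF1 letters were in 0, the ETS letters in 3 (Uqcrh, Atp5e and Atp5md) and the YY1 letters in 0. Among the other 28 members with a window the counts were 7, 10 and 2. The ETS letters thus stood before some of the lower members and some of the others, which were not all above 0 (Atp5k among them). In Sdhb, NRF1 letters lie in the stretch printed and ETS letters elsewhere in the window, and none of the searched letters is in Sdha's window. Each motif was searched as an exact string, so variants of it were not counted, and an absence of letters is not the absence of a site. A match is not a binding site, and no factor was measured here. The 6 lower members lie on 6 chromosomes in the same build: 13 (Sdha), 11 (Uqcr10), 4 (Uqcrh), 2 (Atp5e), 17 (Cox7a2l) and 19 (Atp5md).

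In complex II the catalytic flavoprotein subunit read lower and its 3 partners higher in the heterozygote library, with Sdhc only about as high as the median gene. Sdha, which binds FAD and oxidises succinate, read 11.06 in wild-type total, 10.06 in heterozygote total, 11.23 in wild-type polysome and 10.15 in heterozygote polysome RNA. Both heterozygote values lay below both wild-type values, by 1.00 in total RNA (2-fold lower) and 1.08 in polysome RNA (2.12-fold lower). Its other probe set, 9.72, 9.02, 9.80 and 8.96 in the same order, differed by -0.71 and -0.85.

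Sdhb, the iron-sulphur subunit that passes the electrons on, read 11.10, 11.68, 11.36 and 11.70, a difference of 0.59 in total and 0.33 in polysome RNA. It was the 1 member higher by 1.5-fold, and it fell to 0.37 in total RNA under the scaling that lowered it most. Sdhd, a membrane anchor, read 11.26, 11.82, 11.37 and 11.68, differences of 0.56 and 0.31. A dim second probe set of Sdhd near the floor gave -0.10 and 0.44, so the size for Sdhd rests on the bright one. Sdhc, the other anchor, read 10.80, 11.07, 10.66 and 10.82, differences of 0.27 and 0.16, and 0.48 and 0.37 at its other probe set. The gap between Sdhb and Sdha thus changed by 1.59 on the log2 scale between the genotype labels in total RNA and by 1.42 in polysome RNA, the widest spread within any of the 4 complexes. The directions of these 4 genes at the probe sets used held under every scaling tried. Sdhc, however, fell to 0.04 in total and 0.01 in polysome RNA under the scaling that lowered it most. Its main values were at percentiles 59.6 and 57.1 of all genes, so Sdhc lay near the median gene.

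**Figure D2:**
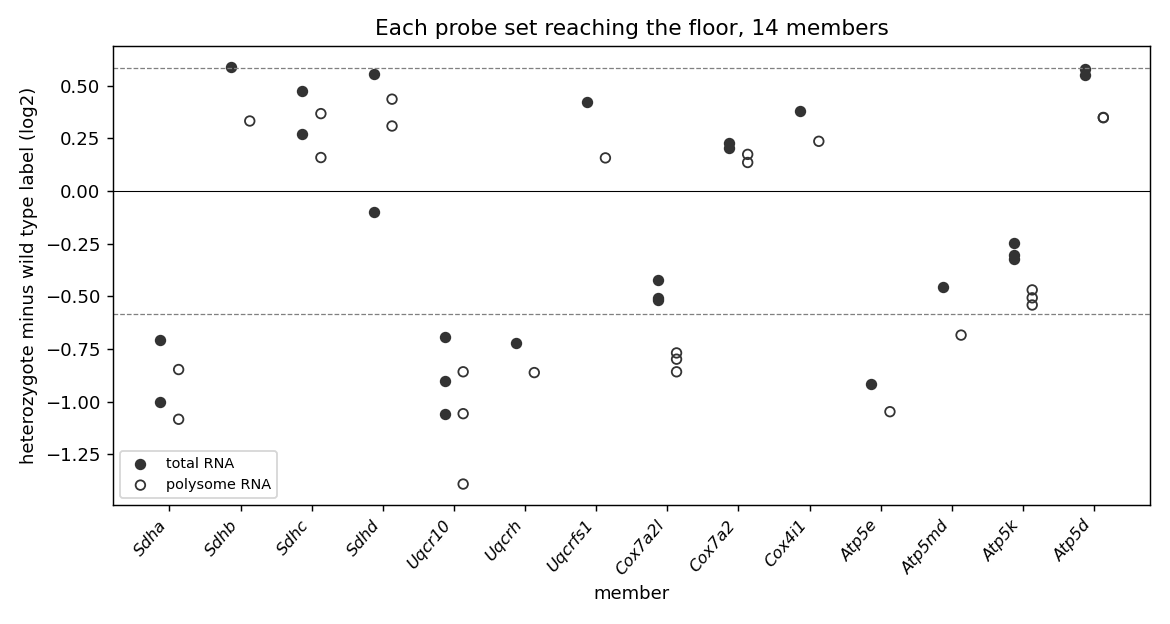
Difference between the genotype labels (heterozygote minus wild type, log2, y axis) for every probe set reaching the floor of 14 members (x axis), filled for total and open for polysome RNA, with dashed lines at 1.5-fold. All probe sets of Sdha, Uqcr10, Cox7a2l and Atp5k lie below 0, and Sdhd has 1 of its 2 on each side of 0 in total RNA.

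Complex III had 2 small subunits lower by at least 1.5-fold. Its 2 electron-carrying subunits and its other small subunits read above 0 and within 1.5-fold. Uqcrh, the hinge protein beside cytochrome c1, read 11.78 in wild-type total, 11.06 in heterozygote total, 11.81 in wild-type polysome and 10.95 in heterozygote polysome RNA. The differences were -0.72 (1.65-fold lower) and -0.86 (1.82-fold lower). RefSeq lists 2 pseudogenes of Uqcrh, and whether its 1 probe set also reads them is not known here. Uqcr10, a small accessory subunit, read 11.02, 10.32, 11.30 and 10.44, differences of -0.69 (1.62-fold lower) and -0.86 (1.81-fold lower). Its other 2 probe sets gave -0.90 and -1.06 in total RNA and -1.06 and -1.39 in polysome RNA, so all 3 read lower in the heterozygote library.

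The 2 redox subunits read above 0, as did the median gene (0.19 in total and 0.11 in polysome RNA). Uqcrfs1, the Rieske iron-sulphur protein, read 10.73, 11.15, 11.00 and 11.15, the highest difference of the complex in total RNA at 0.42, and 0.16 in polysome RNA. In polysome RNA Uqcrfs1 was at percentile 56.8 of all genes and fell to 0.01 under the scaling that lowered it most. Cyc1, cytochrome c1, read 11.11, 11.51, 11.26 and 11.60, differences of 0.40 and 0.34. Uqcrb, a small subunit near the ubiquinone site, read 13.28, 13.56, 13.22 and 13.57. By the probe sets used, its 0.35 was the highest difference of any member in polysome RNA. Its other probe set, also above the floor, gave 0.24 in total and only 0.14 in polysome RNA, so that rank rests on 1 probe set. None of these 3 reached 1.5-fold. Of the core proteins, which face the matrix, Uqcrc1 differed by 0.08 and -0.04 and Uqcrc2 by 0.17 and 0.13. The small subunits Uqcr11 and Uqcrq differed by 0.10 and 0.27 in total RNA and by 0.01 and 0.05 in polysome RNA. The sign depended on the scaling in both kinds of RNA for Uqcrc2 and Uqcr11, in total RNA for Uqcrc1 and in polysome RNA for Uqcrq.

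Complex IV differed least between genotype labels: in total RNA its members reaching the floor spanned 0.80, against 1.59, 1.14 and 1.49 in complexes II, III and V. Cox7a2l was the 1 member past 1.5-fold. Its product, related to subunit 7a, joins complexes III and IV in supercomplexes. Cox7a2l read 11.08 in wild-type total, 10.66 in heterozygote total, 11.67 in wild-type polysome and 10.90 in heterozygote polysome RNA. The wild-type polysome value stood above the other 3. The differences were -0.42 (1.34-fold lower) and -0.77 (1.70-fold lower), and its 2 other probe sets gave -0.51 and -0.52 in total RNA and -0.86 and -0.80 in polysome RNA. After loess subtraction the total RNA difference was -0.65, past 1.5-fold.

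Cox7a2, the broadly expressed form of subunit 7a, read 12.82, 13.02, 12.68 and 12.86, differences of 0.21 and 0.17. Cox7a1, the heart and muscle form, was below the floor throughout at 5.60, 5.33, 5.48 and 5.22. Cox4i1, the broadly expressed form of subunit 4, read 12.85, 13.23, 13.07 and 13.31, the highest difference of the complex in total RNA at 0.38, and 0.24 in polysome RNA. Cox4i2, known as the oxygen-responsive form of lung, was below the floor at 6.82, 6.87, 6.57 and 6.66. Thus the 2 pairs each had the broadly expressed form well above the floor and the tissue-restricted form under it.

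For subunits 6a, 6b and 8 the broadly expressed form was again well above the floor. Of the tissue-restricted forms, Cox8b was under it in all 4 arrays and Cox6a2 in 3, while Cox6b2 and Cox8c were above it in all 4. Cox6a1 read 13.10, 13.45, 13.20 and 13.43, and its heart and muscle counterpart Cox6a2 read 7.01, 6.85, 7.53 and 7.46. Cox6b1 read 12.57, 12.54, 12.69 and 12.57, and the testis form Cox6b2 read 7.97, 8.08, 8.03 and 8.08. Cox8a read 12.79, 12.90, 12.84 and 12.88. The heart and muscle form Cox8b read 5.91, 5.88, 6.29 and 6.24, and the testis form Cox8c read 8.99, 8.75, 8.91 and 8.74. Levels of different probe sets are not comparable with each other, so each is placed against the floor only. Of 20 markers of skeletal and heart muscle, 3 were at or above the floor in every array, and of 8 brown fat markers, which here include Cox7a1 and Cox8b, 0 were.

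The remaining members of complex IV stayed within 1.5-fold. Cox5b, which binds zinc, read 12.91, 13.18, 13.07 and 13.34, and its 0.27 was the highest difference of the complex in polysome RNA. RefSeq lists 1 pseudogene of Cox5b, and the probe set used is of a kind that may cross-hybridise. Probe sets of that same kind gave 0.29 and 0.30 in polysome RNA. A bright one not of that kind gave 0.13, under the values of Cox4i1, Cox5a and Cox6a1, so the rank of Cox5b depends on the probe set. Cox5a, a matrix-side subunit, differed by 0.36 and 0.24 and Cox6a1 by 0.35 and 0.23. Cox6c differed by 0.06 and -0.11, with a sign in total RNA that depended on the scaling. Cox7c, a small structural subunit, read 5.02, 4.68, 4.73 and 4.31, and neither of its 2 probe sets reached the floor. That is a reading of these probe sets, and 1 pseudogene of Cox7c is listed as well.

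**Figure D3:**
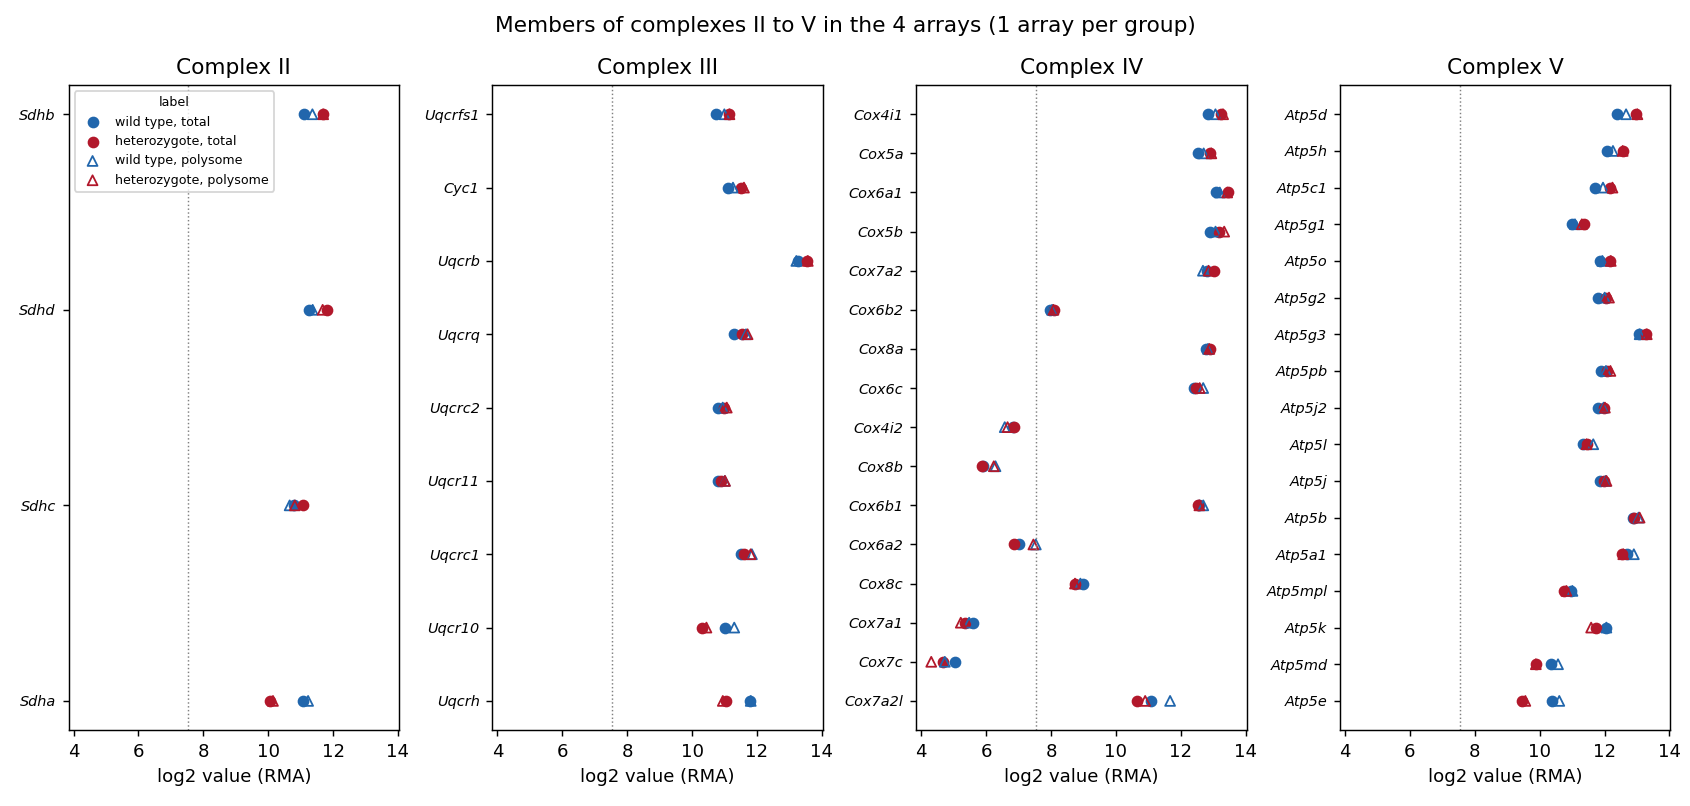
RMA values (log2, x axis) of all 46 members in the 4 arrays, by complex, ordered within each panel by the difference between genotype labels in total RNA. Circles are total and triangles polysome RNA, blue wild-type and red heterozygote labels, and the dotted line is the floor. The 6 lower members (Sdha, Uqcrh, Uqcr10, Cox7a2l, Atp5e and Atp5md) show both red symbols left of both blue ones, as do Cox8c, Atp5a1, Atp5k, Atp5mpl, Cox7a1 and Cox7c, and the 4 members left of the line throughout are Cox4i2, Cox7a1, Cox7c and Cox8b.

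In complex V the 3 subunits of the central stalk, which rotates inside the catalytic head, went different ways. Atp5e, the epsilon subunit, read 10.38 in wild-type total, 9.47 in heterozygote total, 10.60 in wild-type polysome and 9.56 in heterozygote polysome RNA. The differences were -0.91 (1.88-fold lower) and -1.05 (2.07-fold lower), on its 1 probe set. Atp5d, the delta subunit that lies against epsilon, read 12.39, 12.97, 12.66 and 13.01, differences of 0.58 and 0.35, just under 1.5-fold in total RNA. Atp5c1, the gamma subunit, read 11.71, 12.17, 11.95 and 12.24, differences of 0.46 and 0.29, with 1 pseudogene listed. The gap between Atp5d and Atp5e thus changed by 1.49 in total RNA and by 1.40 in polysome RNA between the genotype labels. All probe sets of Atp5e and Atp5d end in _s_at, a kind that may cross-hybridise, as does the one used for Atp5c1. Neither Atp5e nor Atp5d has a value once such probe sets are left out.

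The catalytic head and the c ring differed little. Atp5b, the catalytic beta subunit, read 12.88, 12.91, 13.04 and 13.08, differences of 0.03 and 0.03 whose sign depended on the scaling. Atp5a1, the alpha subunit, read 12.69, 12.53, 12.90 and 12.58, differences of -0.16 and -0.33. The 3 genes that encode the same mature c subunit read slightly higher in the heterozygote library by the probe sets used. Atp5g1 read 10.99, 11.36, 11.09 and 11.30, differences of 0.37 and 0.21. Atp5g2 read 11.80, 12.05, 12.00 and 12.14, differences of 0.25 and 0.13. Its second probe set, below the floor, gave -0.575 in total RNA, and the average of both turned the difference for Atp5g2 to -0.16. Atp5g3 read 13.05, 13.27, 13.08 and 13.30, a difference of 0.22 in both. Of the differences of these 5 genes at the probe sets used, Atp5g1 in total RNA and Atp5a1 in polysome RNA exceeded the SD between probe sets of 1 gene.

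The peripheral stalk, which holds the head still, was above 0 in all 4 of its members, as were 66.1% (total) and 62.9% (polysome RNA) of all genes. Atp5h, subunit d, differed by 0.51 and 0.30, Atp5o, the oligomycin sensitivity subunit, by 0.30 and 0.26, and Atp5pb, subunit b, by 0.21 and 0.14. Atp5j, subunit F6, differed by 0.10 and 0.02 and its sign depended on the scaling. Both Atp5j values lay below the median gene, at percentiles 41.8 and 39.5, and Atp5pb lay near it at 51.9 and 54.3. The small membrane subunits that help the enzyme form dimers were mostly below 0. Atp5md, also called DAPIT, read 10.35, 9.90, 10.56 and 9.88, differences of -0.45 (1.37-fold lower) and -0.68 (1.61-fold lower). Atp5k, subunit e, read 12.03, 11.73, 12.05 and 11.59, differences of -0.30 and -0.47, with -0.32 and -0.25 in total RNA at its 2 other probe sets. RefSeq lists 4 pseudogenes of Atp5k. Atp5l, subunit g, read 11.35, 11.46, 11.65 and 11.44, differences of 0.12 and -0.21, with 2 pseudogenes listed. Atp5mpl, the 6.8 kDa proteolipid, read 10.97, 10.73, 11.01 and 10.82, differences of -0.23 and -0.18. Atp5j2, subunit f, differed by 0.16 and 0.04. Thus 4 of these 5 membrane subunits were below 0 in polysome RNA (62.9% of all genes above 0), and 3 were in total RNA (66.1% above 0). These counts depend on the scaling, as did the sign of Atp5j2 in both kinds of RNA and of Atp5l in total RNA.

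Between fraction labels, the members showed small differences. Polysome RNA read at least 1.5-fold higher than total RNA for 1 member in the wild-type libraries (Cox7a2l, 0.59), against 3.65% of all genes, and for 0 lower, against 1.56%. In the heterozygote libraries it was 1 higher (Cox6a2, 0.61), against 2.24%, and 0 lower, against 1.35%. Cox6a2 reached the floor through its wild-type polysome value alone. Both of its heterozygote values, 6.85 and 7.46, lay below the floor, so this 1 call is of a dim probe set and bears little weight. The median over members was 0.17 in the wild-type libraries with 38 of 42 above 0, beside 0.14 and 75.6% for all genes. In the heterozygote libraries it was 0.04 with 29 above 0, beside 0.07 and 65.1%. After each array was centred on its median, the members' medians were 0.05 and -0.06 and the counts above 0 were 28 and 9, so the side of 0 says little here. The SD over members was 0.15 and 0.13, beside 0.28 and 0.26 over all genes. The members' SD was thus below that of all genes between fraction labels and near it between genotype labels, with level not matched.

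By complex, the medians in the wild-type libraries were 0.14 for complex II, 0.22 for III, 0.14 for IV and 0.17 for V. In the heterozygote libraries they were -0.06, 0.09, 0.04 and 0.04. The members at the upper ends in the wild-type libraries were Sdhb at 0.27, Uqcrq at 0.38, Cox7a2l at 0.59 and Atp5l at 0.30. Those at the lower ends were Sdhc at -0.14, Uqcrb at -0.07, Cox7a2 at -0.13 and Atp5k at 0.02. In the heterozygote libraries the upper ends were Sdha at 0.09, Uqcrc1 at 0.21, Cox6a2 at 0.61 and Atp5b at 0.17. Cox6a2 was below the floor in both of these arrays, and the next of complex IV was Cox7a2l at 0.24. The lower ends were Sdhc at -0.25, Uqcrh at -0.11, Cox7a2 at -0.16 and Atp5k at -0.14. By the probe sets used, Sdhc, Cox7a2 and Atp5k were lowest of their complex under both labels. For Sdhc this rests on 1 probe set: its other one, nearly as bright, gave 0.16 and 0.05, the opposite direction. The probe sets of Atp5k spread from 0.02 to 0.44 in the wild-type libraries, and those of Cox6c from -0.16 to 0.27, beside -0.14 to 0.59 over the members. Across the 42 members the fraction differences under the 2 labels, which share no array, had r of 0.73 and rho of 0.61, with 31 of the same sign. Over all genes r was 0.805, rho 0.68, and 5430 of 7179 had the same sign. Macrophage markers were higher in the polysome libraries: 3 and 3 of 14 were at or above the floor in total RNA and 7 and 9 in polysome RNA (wild type, heterozygote), with summed log2 values of 89.1, 92.7, 103 and 107. Their part in the fraction differences was not tested.

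**Figure D4:**
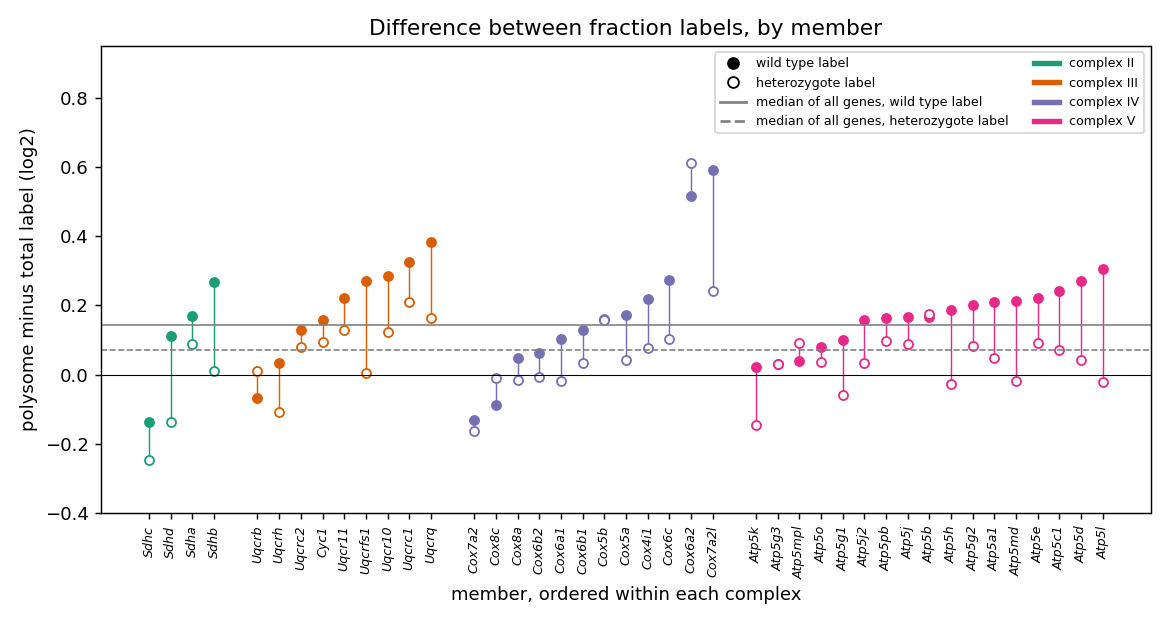
Polysome minus total label (log2, y axis) for each member reaching the floor, ordered within each complex (x axis), filled for the wild-type and open for the heterozygote label. Grey lines give the medians of all genes, 0.14 and 0.07. Most open points lie under the filled ones, and Cox7a2l drops from 0.59 to 0.24.

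The association difference, heterozygote minus wild type of the polysome minus total values, asks whether ribosome binding shifted between genotype labels. Of the 42 members, 0 were past 1.5-fold in either direction, against 0.167% of all genes higher and 0.139% lower. The members' median was -0.12 with 5 above 0, beside -0.07 and 32.9% above 0 for all genes. It was -0.18 in complex II, -0.12 in III, -0.08 in IV and -0.13 in V. Under the other 3 scalings the members' median was -0.10, -0.06 and -0.05, and that of all genes -0.06, -0.01 and close to 0. The lowest members were Cox7a2l at -0.35, Atp5l at -0.33, Uqcrfs1 at -0.27 and Sdhb at -0.26. By the probe sets used, the highest of each complex were Cox6a2 at 0.09, Uqcrb at 0.08, Atp5mpl at 0.05 and Sdha at -0.08. Cox6a2 reached the floor in wild-type polysome RNA alone, and the next of complex IV was Cox8c at 0.08. The other probe set of Uqcrb gave -0.09. Cox7a2l was at -0.35 and -0.28 at its other probe sets, and the SD between probe sets of 1 gene was 0.22 for this measure. Sdhd was at -0.25 by its bright probe set and 0.53 by its dim one, the 1 case of probe sets of a member with opposite sign and both past 0.2.

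The partners of these complexes were read from lists of related genes. Among 33 complex I subunits, 3 were 1.5-fold higher in total RNA (Ndufs7 at 0.69, Ndufb8 at 0.68 and Ndufs3 at 0.62) and 1 was lower, beside 7.42% and 6.23% of all genes. The lower one was Ndufs1, with -1.13 in total and -1.11 in polysome RNA. Ndufs1, the largest iron-sulphur subunit of complex I, read 9.65, 8.52, 9.80 and 8.70, so it stood apart from its list as Sdha did from complex II. Ndufc1 was also lower in polysome RNA, at -0.75, which made 2 of 33 beside 5.86%. Ndufs5 was the 1 subunit past 1.5-fold between fraction labels, beside 3.65% (wild type) and 2.24% (heterozygote) of all genes higher. It was higher in polysome RNA by 1.09 (wild type) and 1.00 (heterozygote). The complex I median was 0.36 for total and 0.21 for polysome RNA, higher than the 0.17 and 0.04 of complexes II to V.

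Of 15 complex IV assembly factors reaching the floor, 3 were 1.5-fold lower in both kinds of RNA, beside 6.23% and 5.86% of all genes, and 0 were higher, beside 7.42% and 2.08%. Cox17, the copper chaperone that delivers copper for complex IV, differed by -0.96 and -1.16. Cox20, which helps mature subunit 2, differed by -0.86 and -0.91, and Coa6, another factor of copper delivery, by -0.64 and -0.86. In polysome RNA, 1 of 5 complex III factors was lower (Uqcc3, -0.59), as was 1 of 4 complex V factors (Tmem242, -1.08). The share of all genes was 5.86%. Tmem242 was also 0.72 higher in polysome than total RNA in the wild-type libraries, beside 3.65% of all genes past 1.5-fold. Its association difference was -0.59, where 0.139% of all genes were lower by 1.5-fold or more. None of 3 complex II factors passed 1.5-fold.

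Of 9 genes for cytochrome c and coenzyme Q synthesis, 2 were higher in total RNA, Coq7 at 0.84 and Coq5 at 0.70, beside 7.42% of all genes. Of 8 regulators, 2 were higher in total RNA (7.42% of all genes) and 1 in polysome RNA (2.08%). Tfam, which packages mitochondrial DNA, was at 1.07 and 0.41, and Gabpb1, a subunit of the ETS factor GABP, at 0.84 and 0.59. The lowest regulators were Polrmt at -0.47 in total and Pprc1 at -0.52 in polysome RNA. Between fraction labels in the wild-type libraries Tfam and Gabpb1 were at 0.68 and 0.82, 2 of 8 beside 3.65% of all genes. Tfam had an association difference of -0.66, where 0.139% of all genes were lower by 1.5-fold or more. Of 8 genes of the cristae, 1 was lower in both kinds of RNA, beside 6.23% and 5.86% of all genes. This was Immt, a core protein of the cristae junctions, at -0.73 in total and -0.66 in polysome RNA. Stoml2 alone was past 1.5-fold higher in polysome than total RNA in the wild-type libraries (0.60), beside 3.65%. Of 13 genes of the tricarboxylic acid cycle, which feeds complex II, 1 was lower (Ogdh, -0.81 and -0.78), beside the same 6.23% and 5.86%. Suclg2 was 0.59 higher in polysome than total RNA in the heterozygote libraries, 1 of 13 beside 2.24%. In lists this small, 1 or 2 genes past 1.5-fold say little about the list. The median of 74 mitochondrial ribosomal protein genes was 0.40 in total and 0.19 in polysome RNA, and that of 47 cytosolic ones was -0.20 and -0.32. Members of complexes II to V lay between these, at 0.17 and 0.04.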

How the data were processed

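The authors deposited a table of 22690 probe sets in log2 units with 1 column an array. RMA, R 3.4.3 and affy 1.56.0 are named in the submitters' processing notes; settings and genome build are not given in the sources used here. RMA corrects background, normalises arrays to each other and summarises probes. Between-array normalisation evens out shifts common to most genes. No depth exists for arrays, and their number limits precision.

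Only probe sets with 1 symbol were named (20380, against 691 with several). The probe set of highest mean level stood for its gene. Differences of log2 values were taken by label. Genes counted had a highest value at or above the median of all values (7.53), and a size rule of 1.5-fold (2-fold as an alternative) replaced a test. Named members were the highest and lowest of each complex per comparison, those past 1.5-fold, those with opposed probe sets and isoforms of 1 subunit; other members were added for completeness. From related lists, genes past 1.5-fold were named; ribosomal protein lists are given by medians and marker lists by counts, medians and their extremes. The members and lists were chosen with earlier results of these data known.

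As alternatives, a gene's probe sets were averaged, those ending in _x_at or _s_at were left out, and other settings were applied: floors (none, mean over arrays, 75th percentile at 9.33), centring, quantile normalisation and a loess trend (span 0.3). The calculation was tested on simulated data. Python 3.11.15, pandas 2.3.3 and statsmodels 0.14.6 were used.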

Additional observations from a re-analysis of the deposited data

How the results depend on the processing

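With 1 array per group, no replicate could be left out, and no difference has a replicate check. No paired analysis was possible because each group holds 1 array and the labels carry no replicate numbers. No count of members past 1.5-fold changed direction. The members' medians ranged from 0.01 to 0.21 between genotype labels in total RNA, from -0.04 to 0.13 in polysome RNA, from 0.05 to 0.17 and from -0.06 to 0.05 between fraction labels (wild type, heterozygote), and from -0.12 to -0.05 for the association difference. The median in polysome RNA was below 0 under the loess trend, and that between fraction labels in the heterozygote libraries under all 3 other scalings. The count of members 1.5-fold higher in total RNA was 1 and became 0 with quantile normalisation, the loess trend and the 2-fold rule. The 4 lower members in total RNA became 1, and the 6 in polysome RNA became 2, under the 2-fold rule. Otherwise the lower counts were 3 to 6 and 5 to 7. The 1 member higher in polysome than total RNA in the wild-type libraries became 0 when probe sets were averaged, and under centring, quantile normalisation, the loess trend and the 2-fold rule. The 1 in the heterozygote libraries became 0 with the floor on the mean or at the 75th percentile, centring, quantile normalisation, the loess trend and the 2-fold rule. Differences of single members moved beyond the spread between probe sets in 6 cases when probe sets were averaged and 5 without _x_at and _s_at probe sets. Of these, 5 changed sign, with no value past 1.5-fold on either side. When probe sets were averaged, Atp5g2 went from 0.25 to -0.16 in total RNA and from -0.12 to 0.18 in the association difference, and Sdhd from -0.25 to 0.14 in the latter. Without _x_at and _s_at probe sets, Sdhc went from -0.14 to 0.16 and from -0.25 to 0.05 between fraction labels.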
